A study of Mus musculus with 6 samples.

Results

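Lipid handling in the lung after hemorrhagic shock (HS) was followed through 10 genes that cover the path of a fatty acid from the capillary to the mitochondrion. They were *Lpl*, *Angptl4*, *Cd36*, *Fabp4*, *Acsl1*, *Plin2*, *Plin4*, *Pnpla2*, *Lipe* and *Cpt1a*, taken by gene symbol from the 54532 genes of the deposited read counts, and each symbol matched 1 gene. RNA came from the lungs of 3 GRdim/dim mice and 3 GR+/+ littermates, one poly(A)-captured library per mouse. GRdim/dim mice carry a point mutation in *Nr3c1*, the gene of the glucocorticoid receptor (GR), in every cell, and the mutation impairs dimerization of the receptor. Both genotypes were 10 to 16 weeks old, on a mixed 129/SvEv and C57BL/6 background. All mice were anaesthetised, ventilated, bled to a mean arterial pressure of 35 mmHg for 1 h, retransfused, and resuscitated for 4 h with colloids and norepinephrine. No lungs without shock were analysed here, so each value describes lungs after HS. Of the sequenced mice, 2 of the GR+/+ and 1 of the GRdim/dim mice were female, so sex and genotype were not balanced. The comparison asks in which way a dimerization-deficient GR goes with the RNA levels of lipid genes in the shocked lung.

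Lipoprotein lipase, the product of *Lpl*, frees fatty acids from circulating triglycerides on the capillary wall, where GPIHBP1 holds it and ANGPTL4 inactivates it. CD36 passes the fatty acids across the membrane, FABP4 binds them in the cytosol and ACSL1 activates them to acyl-CoA. Perilipins such as PLIN2 and PLIN4 coat the droplets in which cells store them, PNPLA2 (adipose triglyceride lipase) and LIPE (hormone-sensitive lipase) release them again, and CPT1A admits them to the mitochondrion for oxidation. In the lung, lipofibroblasts and macrophages hold lipid droplets, and alveolar type 2 cells use fatty acids to make surfactant. Glucocorticoids and the peroxisome proliferator-activated receptors (PPARs) are known to induce several of these genes, *Angptl4* among them.

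The sequence upstream of a gene's start site is where such receptors can bind, so promoters are shown for 3 of the genes. *Plin2* was one of the genes whose libraries did not overlap between the genotypes, and *Pnpla2* and *Cpt1a* varied alike across the libraries. Promoters of 7 of the 10 genes, 9 in all, were found in the RefSeq promoter table of GRCm38.p6, which reaches from 250 bases before to 50 bases after each start site. There was no entry for *Angptl4*, *Lpl* and *Fabp4*. The sequences run 5′ to 3′ from 250 bases before to 20 bases after the start site, with matches to the searched motifs in capitals. *Plin2* lies on the minus strand (chr4:86670040-86670309), *Pnpla2* (chr7:141454938-141455207) and *Cpt1a* (chr19:3323051-3323320) lie on the plus strand.
Plin2: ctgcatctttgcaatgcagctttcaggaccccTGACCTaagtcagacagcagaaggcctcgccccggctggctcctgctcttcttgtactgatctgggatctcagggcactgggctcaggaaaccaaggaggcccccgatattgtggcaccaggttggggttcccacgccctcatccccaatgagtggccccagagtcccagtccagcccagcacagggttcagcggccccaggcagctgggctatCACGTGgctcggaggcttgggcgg
Pnpla2: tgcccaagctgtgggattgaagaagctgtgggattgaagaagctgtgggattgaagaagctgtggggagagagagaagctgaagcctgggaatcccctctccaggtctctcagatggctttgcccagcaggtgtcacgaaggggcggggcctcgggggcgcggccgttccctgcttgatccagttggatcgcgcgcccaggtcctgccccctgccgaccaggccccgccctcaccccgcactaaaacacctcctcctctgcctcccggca
Cpt1a: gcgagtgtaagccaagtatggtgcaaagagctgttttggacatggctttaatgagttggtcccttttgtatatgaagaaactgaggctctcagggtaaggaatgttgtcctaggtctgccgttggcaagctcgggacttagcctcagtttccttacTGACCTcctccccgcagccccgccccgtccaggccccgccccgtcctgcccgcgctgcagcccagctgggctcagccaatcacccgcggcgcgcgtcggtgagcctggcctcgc

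Both strands were searched for 5 motifs. AGGTCA, the half-site of PPARs and related nuclear receptors, was present in 3 of the 9 promoters, those of *Plin2*, *Cd36* and *Cpt1a*, and in 16.3% of all 32851 promoters in the table. It begins at position -218 in *Plin2* and at position -94 in *Cpt1a*, counted from the start site, and on the minus strand of the gene in both, so it is printed as its reverse complement. ACGTG, the core of the hypoxia response element, was present in 2 of the 9 promoters, in *Plin2* and *Lipe*, and in 19.6% of all. In each of them it occurs on both strands with overlapping letters, at positions -4 and -3 of *Plin2*. The glucocorticoid half-site AGAACA was in none of the 9 promoters and in 19.0% of all. The full PPAR element, a direct repeat of AGGTCA with a single spacer base, was in none of the 9 and in 0.0396% of all. The full glucocorticoid element, AGAACA and its reverse complement with 3 bases between, was in none of the 9 and in 0.00913% of all. Each full element contains the half-site of the same receptor. A match describes letters in this window and is not a binding site.

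Of the 10 genes, all had enough reads to be tested, with 247 to 27147 reads per gene and library. Library totals were 16361747 to 32082940 reads in GR+/+ and 15687734 to 24444604 in GRdim/dim lungs, and at 247 reads the counting error alone is 6.36% of the value. None was called different between the genotypes by edgeR's quasi-likelihood test. A call needed an adjusted *p*-value below 0.05 together with an absolute log2 fold change above 0.5, which 0.169% of the 16568 genes tested reached (0.0724% with higher and 0.0966% with lower levels in GRdim/dim lungs). DESeq2 called none of the 10 either, against 1.7% of its 16150 genes. At an unadjusted *p*-value under 0.05, edgeR gave 4 of the 10, *Plin2* with higher and *Lpl*, *Angptl4* and *Pnpla2* with lower levels in GRdim/dim lungs, and 9.6% of all genes (4.91% higher, 4.68% lower). DESeq2 gave 5 at that threshold. With a covariate for sex-linked expression 2 genes passed it in edgeR, *Pnpla2*, which was among the 4, and *Plin4*, which was not. Leaving out GR+/+ replicate 1 or GR+/+ replicate 2 gave 1 gene each. The adjusted *p*-values of the 10 genes from edgeR ran from 0.36 to 0.94. The log2 fold change, GRdim/dim minus GR+/+, was negative for 7 of the 10 genes and for 49.1% of all genes. Its median was -0.39 over the 10 genes and 0.01 over all genes tested. The groups did not overlap for 2 of the 10 genes, *Lpl* and *Plin2*, and for 14.8% of all genes (7.77% higher, 7.05% lower). The 10 genes were chosen with earlier results of these data known. Their counts beside the shares of all genes are therefore a description and no test. The 95% interval of the log2 fold change included 0 for 6 genes, all but *Lpl*, *Angptl4*, *Pnpla2* and *Plin2*. An exact permutation test of a single gene cannot give a *p*-value below 0.1 with 3 lungs against 3. In whole lungs, fewer cells of a type and less RNA per cell cannot be told apart.

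**Figure D1:**
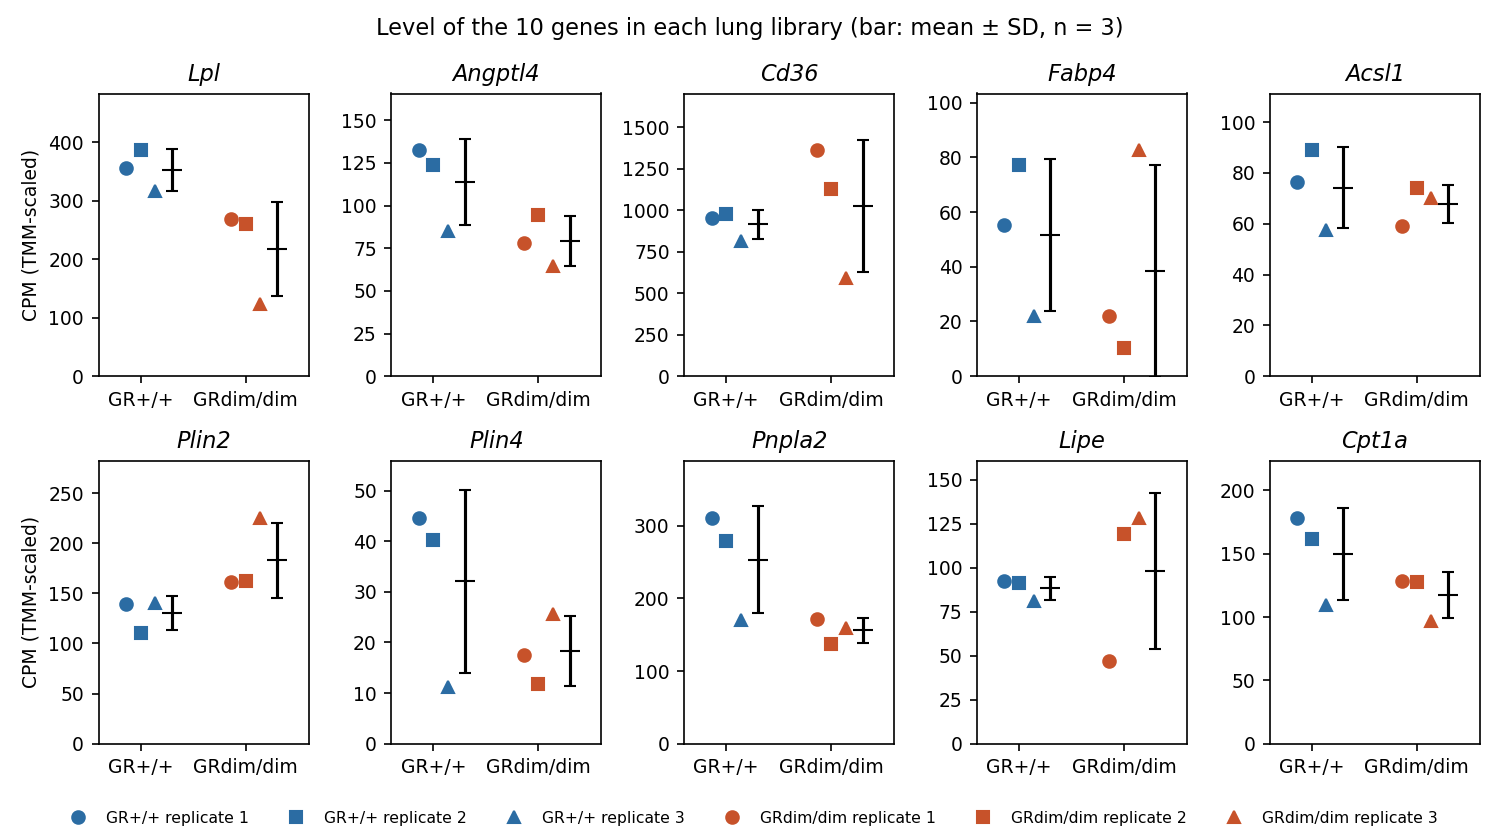
Level of each of the 10 genes in the 6 lung libraries, in library-scaled read counts (CPM, scaled by the TMM method), on linear axes that start at 0; symbols mark the replicate, and black bars show the mean ± SD of 3 libraries. The groups are separate for *Lpl* (lower in GRdim/dim) and *Plin2* (higher), and overlap in the other 8 panels.

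*Lpl* (ENSMUSG00000015568, GRCm38 chr8:68880491-68907448, plus strand) encodes the lipase at the capillary wall. Its level was 355, 387 and 316 CPM in GR+/+ replicates 1, 2 and 3 and 269, 260 and 124 CPM in GRdim/dim replicates 1, 2 and 3, where CPM are reads per 1000000 reads of the library after TMM scaling. Every GRdim/dim library lay below every GR+/+ library, and GRdim/dim replicate 3 lay far below the other two. The means were 353 ± 35.3 and 218 ± 81.1 CPM (SD, n = 3 each), a ratio of 0.617. The log2 fold change was -0.70 (SE 0.27, 95% interval -1.30 to -0.09), with an adjusted *p*-value of 0.45 in edgeR, 0.24 in DESeq2, and an exact permutation *p*-value of 0.1 (two-sided, the smallest possible). Without GRdim/dim replicate 3 the log2 fold change was -0.42. With no filter on low counts, which let more genes into the fit, *Lpl* was called (log2 fold change -0.70, adjusted *p*-value 0.045 in edgeR). That setting called 522 genes in all, against 28 in the main fit. Of the windows of 31 bases in its main transcript, 6.12% also occur in another gene.

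*Angptl4* (ENSMUSG00000002289, chr17:33773750-33781575, minus strand) encodes the secreted inhibitor of the lipase. Levels were 133, 124 and 85.1 CPM in the GR+/+ and 78.3, 94.4 and 64.8 CPM in the GRdim/dim libraries. The groups overlapped, because GR+/+ replicate 3 lay below GRdim/dim replicate 2. Between the genotypes the log2 fold change was -0.52 (SE 0.21, 95% interval -0.99 to -0.05), with an adjusted *p*-value of 0.47 in edgeR and an exact permutation *p*-value of 0.2. Per gene length, the ratio of *Angptl4* to *Lpl* RNA was 1.19, 1.02 and 0.859 in GR+/+ and 0.928, 1.16 and 1.67 in GRdim/dim lungs. The ratio was highest in GRdim/dim replicate 3, the library with the least *Lpl*, and its means of 1.02 ± 0.17 and 1.25 ± 0.38 (SD) were not told apart (exact permutation test, *p* = 0.5). The deposited length of *Lpl* is 10478 bases and that of its main transcript 4115. On main transcript lengths the ratio was 0.464, 0.399 and 0.335 in GR+/+ and 0.362, 0.452 and 0.650 in GRdim/dim lungs, so *Angptl4* then lay below *Lpl* in every library.

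The lipase axis held 11 other tested genes. None was called, and 2 had an unadjusted *p*-value under 0.05, both with higher levels in GRdim/dim lungs. Of all genes, 4.91% reached it with higher and 4.68% with lower levels. With *Lpl* and *Angptl4* included, the log2 fold change was negative for 11 of the 13 tested genes of the axis. *Gpihbp1*, the anchor of the lipase on capillary endothelium, was at 131, 171 and 172 CPM in GR+/+ and at 193, 200 and 259 CPM in GRdim/dim lungs. These groups did not overlap (log2 fold change 0.46, SE 0.19, edgeR adjusted *p*-value 0.48), and *Gpihbp1* thus lay in the opposite direction to *Lpl*. No overlap was a condition for naming *Gpihbp1* and *Pcsk6*, so it is not a result about them. *Pcsk6*, a proprotein convertase that can cleave the lipase, had 19.7, 22.8 and 26.7 CPM in GR+/+ and 31.0, 37.6 and 32.8 CPM in GRdim/dim libraries (log2 fold change 0.55, adjusted *p*-value 0.41). The median log2 fold change of the 13 tested genes of this axis was -0.25, and it ran from -0.33 without GRdim/dim replicate 1 to -0.11 without GR+/+ replicate 1.

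*Cd36* (ENSMUSG00000002944, chr5:17781690-17888801, minus strand), the membrane fatty acid translocase, had the highest level per gene length of the 10 genes, above 99.4% of all genes tested. Its levels were 954, 978 and 815 CPM in GR+/+ and 1363, 1128 and 589 CPM in GRdim/dim lungs. The GRdim/dim libraries thus held both the highest values and the lowest one, and the GR+/+ libraries lay between them. Between the means lay a log2 fold change of 0.17 (SE 0.28), and its 95% interval of -0.47 to 0.80 leaves room for differences in either direction. Without GRdim/dim replicate 1 it was -0.09.

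*Fabp4* (ENSMUSG00000062515, chr3:10204088-10208576, minus strand), the fatty acid chaperone of adipocytes, macrophages and capillary endothelium, varied most of the 10 genes over the 6 libraries. It had 55.3, 77.3 and 22.1 CPM in GR+/+ and 22.2, 10.3 and 82.7 CPM in GRdim/dim libraries. The highest library was 3.50 times the lowest within GR+/+ and 8.06 times the lowest within GRdim/dim lungs. Its log2 fold change of -0.43 had an SE of 0.82 and a 95% interval from -2.43 to 1.57, so no difference was detectable. It was -1.67 without GRdim/dim replicate 3, 0.03 without GRdim/dim replicate 2 and -0.0028 without GR+/+ replicate 2.

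*Acsl1* (ENSMUSG00000018796, chr8:46471037-46536051, plus strand), which activates long-chain fatty acids, had 76.3, 89.0 and 57.5 CPM in GR+/+ and 59.3, 74.0 and 70.1 CPM in GRdim/dim lungs. The groups overlapped fully (log2 fold change -0.13, SE 0.19, 95% interval -0.56 to 0.30), and the sign turned to 0.03 without GR+/+ replicate 2. The antisense gene *Gm45244*, which shares 1039 exon bases with *Acsl1*, was assigned 0 to 4 reads per library. Of the 12 tested acyl-CoA synthetases and thioesterases, including *Acsl1*, none had an unadjusted *p*-value under 0.05. Of the 14 tested genes of fatty acid uptake and binding, none was called by edgeR, and their median log2 fold change of 0.08 turned to -0.18 without GRdim/dim replicate 3. *Slc27a2*, a fatty acid transporter, had 12.9 CPM in GR+/+ replicate 2 and 0.418 to 1.43 CPM in the other 5 libraries. *Scarb1*, the scavenger receptor for high-density lipoprotein, was named because DESeq2 called it. It had 181, 127 and 98.2 CPM in GR+/+ and 407, 164 and 331 CPM in GRdim/dim libraries (log2 fold change 1.15, SE 0.33, adjusted *p*-value 0.30 in edgeR and 0.0196 in DESeq2), and the groups overlapped.

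*Plin2* (ENSMUSG00000028494, chr4:86648386-86670060, minus strand), the perilipin found on droplets in most cell types, was the only one of the 10 genes with all GRdim/dim libraries above all GR+/+ libraries. It had 140, 111 and 141 CPM in GR+/+ and 161, 162 and 226 CPM in GRdim/dim lungs. The means were 130 ± 17.0 and 183 ± 37.0 CPM (SD, n = 3 each), a ratio of 1.40. edgeR gave a log2 fold change of 0.49 (SE 0.19, 95% interval 0.06 to 0.91), an adjusted *p*-value of 0.46, 0.39 in DESeq2, and an exact permutation *p*-value of 0.1 (two-sided). The fold change was 0.31 on the log2 scale without GRdim/dim replicate 3 and 0.58 without GRdim/dim replicate 1. Its promoter, shown above, holds the AGGTCA match and the stretch CACGTG, which matches ACGTG on both strands. Of its main transcript, 8.45% of the 31-base windows also occur elsewhere, mostly in *Gm12551*, to which only 0 to 2 reads per library were assigned.

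*Plin4* (ENSMUSG00000002831, chr17:56100591-56109803, minus strand), a perilipin typical of adipocytes and muscle, had 44.7, 40.2 and 11.3 CPM in GR+/+ and 17.6, 11.9 and 25.7 CPM in GRdim/dim lungs. Replicates 1 and 2 of GR+/+ were the highest libraries and replicate 3 of GR+/+ the lowest, so the groups overlapped. The log2 fold change was -0.80 (SE 0.47, 95% interval -1.85 to 0.24). It was -1.21 without GR+/+ replicate 3 and -0.48 without GR+/+ replicate 1.

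As a share of all perilipin RNA (*Plin1* to *Plin5*, counts per gene length within each library), *Plin2* made up 56.4%, 51.9% and 59.1% in GR+/+ and 69.3%, 67.5% and 68.4% in GRdim/dim lungs. These shares do not depend on how libraries are scaled. The GRdim/dim libraries lay close together and all above the GR+/+ libraries (55.8% ± 3.61 against 68.4% ± 0.92, SD, n = 3 each, exact permutation *p*-value 0.1). With the length of the main transcript in place of the deposited length the shares were 68.9% and 79.2%, and the groups again did not overlap. *Plin3*, the perilipin next in level, made up 29.6% ± 3.37 and 23.8% ± 3.23 (exact permutation *p*-value 0.2, and 20.4% and 15.4% without overlap on main transcript lengths), and *Plin4* 8.43% ± 4.82 and 4.12% ± 0.96 (exact permutation *p*-value 0.4). In CPM, *Plin3* was at 71.5, 66.2 and 85.7 in GR+/+ and at 54.6, 71.2 and 78.5 in GRdim/dim lungs.

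Other droplet genes were inspected beside the perilipins. Of the 13 tested genes of lipid droplet proteins, 2 had an unadjusted *p*-value under 0.05, *Plin2* and *Hilpda*, both with higher levels in GRdim/dim lungs. Of all genes, 4.91% reached it with higher and 4.68% with lower levels. The log2 fold change was negative for 10 of the 13 genes. *Hilpda* encodes a small hypoxia-inducible droplet protein that inhibits PNPLA2. It had 51.2, 59.5 and 88.8 CPM in GR+/+ and 93.9, 265 and 134 CPM in GRdim/dim libraries, with no overlap, a condition for naming it. Its log2 fold change was 1.31 (SE 0.36), with an adjusted *p*-value of 0.27 in edgeR and 0.00889 in DESeq2, which called it. The median log2 fold change of the list was -0.12, and it ran from -0.24 without GRdim/dim replicate 3 to -0.0613 without GRdim/dim replicate 2.

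**Figure D2:**
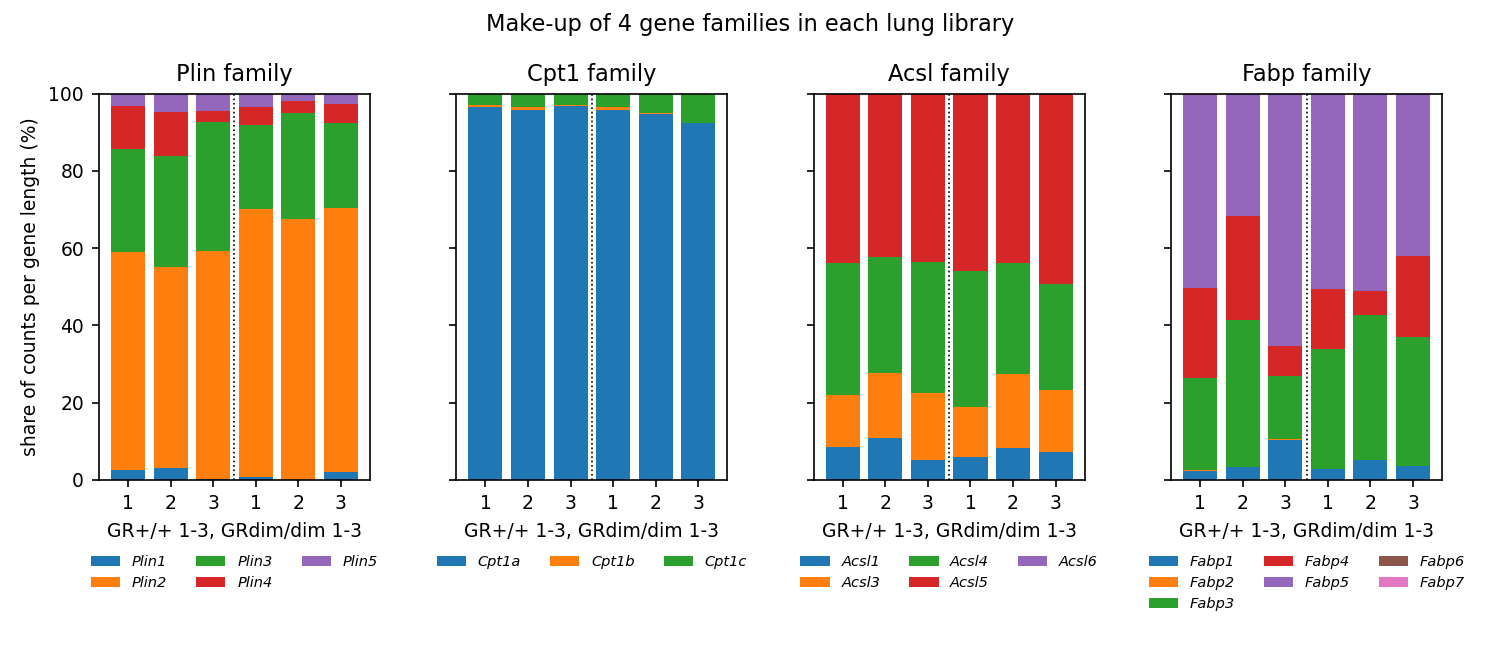
Share of each member in the RNA of 4 gene families (%, counts divided by gene length within each library), stacked to 100% for GR+/+ replicates 1 to 3 on the left and GRdim/dim replicates 1 to 3 on the right of the dotted line. *Plin2* takes 51.9% to 59.1% of the perilipin RNA in GR+/+ and 67.5% to 69.3% in GRdim/dim lungs, *Cpt1a* takes at least 92.4% of the Cpt1 RNA in every library, and the *Fabp4* share varies within both genotypes.

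*Pnpla2* (ENSMUSG00000025509, chr7:141455198-141460743, plus strand) encodes the lipase that starts the breakdown of stored triglycerides, and it had the smallest adjusted *p*-value of the 10 genes. Its levels were 311, 279 and 170.3 CPM in GR+/+ and 171.2, 138 and 159 CPM in GRdim/dim lungs. GR+/+ replicates 1 and 2 were well above the other 4 libraries, and GR+/+ replicate 3 lay just below the highest GRdim/dim library. The means were 253 ± 73.8 and 156 ± 17.0 CPM (SD, n = 3 each), a log2 fold change of -0.70 (SE 0.23, 95% interval -1.21 to -0.19). The adjusted *p*-value was 0.36 in edgeR and 0.14 in DESeq2, and the exact permutation *p*-value 0.2. With no filter on low counts *Pnpla2* was called (log2 fold change -0.70, adjusted *p*-value 0.0395 in edgeR). It was among 522 genes called under that setting, against 28 in the main fit.

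*Lipe* (ENSMUSG00000003123, chr7:25379527-25398710, minus strand), the hormone-sensitive lipase, had 92.2, 91.6 and 81.0 CPM in GR+/+ and 47.3, 119 and 129 CPM in GRdim/dim lungs. As with *Cd36*, the GR+/+ libraries lay close together and the GRdim/dim libraries lay on both sides of them (log2 fold change 0.15, SE 0.31, 95% interval -0.53 to 0.84). Without GRdim/dim replicate 1 it was 0.49, and without GRdim/dim replicate 3 it was -0.08. The antisense gene 4732471J01Rik shares 918 exon bases with *Lipe* and was assigned 22 to 211 reads per library. The use of strand in counting is not given in the sources used here, and without strand reads of the pair could not be told apart.

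The cofactors of these lipases were also read. Of the 12 tested genes of this list, *Pnpla2* alone had an unadjusted *p*-value under 0.05. *Abhd5*, the coactivator of PNPLA2, had 32.0 to 47.4 CPM in GR+/+ and 31.3 to 37.5 CPM in GRdim/dim lungs. *G0s2*, its inhibitor, had 20.0 to 31.6 CPM and 16.9 to 28.3 CPM, and *Mgll*, which completes triglyceride breakdown, had 73.3 to 96.1 CPM and 49.2 to 97.0 CPM.

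*Cpt1a* (ENSMUSG00000024900, chr19:3323301-3385732, plus strand), the carnitine palmitoyltransferase that limits entry of long-chain fatty acids into mitochondria, had 179, 162 and 109 CPM in GR+/+ and 129, 127 and 96.7 CPM in GRdim/dim lungs. The log2 fold change was -0.35 (SE 0.21, 95% interval -0.82 to 0.12, adjusted *p*-value 0.67 in edgeR). It was -0.53 without GR+/+ replicate 3 and -0.20 without GR+/+ replicate 1. *Cpt1a* supplied 96.3% ± 0.55 of the Cpt1 RNA per gene length in GR+/+ and 94.2% ± 1.72 in GRdim/dim lungs (SD, n = 3 each, exact permutation *p*-value 0.2). The share of *Cpt1c*, a form found mainly in neurons, was 2.98% to 3.59% in GR+/+ and 3.60% to 7.57% in GRdim/dim lungs (exact permutation *p*-value 0.1). These ranges did not overlap but nearly touched, and the CPM values of *Cpt1c* did overlap. *Cpt1c* had 117 to 211 reads per library. In all, 20 family shares and the ratio of *Angptl4* to *Lpl* were compared. With 0.1 as the smallest possible *p*-value, none could pass a threshold of 0.05.

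Beyond this gate lie the enzymes of oxidation. Of the 28 tested genes of mitochondrial fatty acid oxidation, *Cpt1a* included, none was called, 1 had an unadjusted *p*-value under 0.05 in each direction, and the median log2 fold change was -0.06. The median turned to 0.08 without GRdim/dim replicate 1 and to 0.02 without GR+/+ replicate 2. *Acads*, the short-chain acyl-CoA dehydrogenase, had 18.2, 18.5 and 17.9 CPM in GR+/+ and 22.1, 30.4 and 26.9 CPM in GRdim/dim lungs (log2 fold change 0.54, SE 0.20, edgeR adjusted *p*-value 0.42). *Acacb*, whose product makes the malonyl-CoA that inhibits CPT1, had 44.4 to 83.9 CPM in GR+/+ and 31.6 to 55.1 CPM in GRdim/dim libraries (log2 fold change -0.66, adjusted *p*-value 0.48). *Pdk4*, which turns glucose carbon away from oxidation, was the only gene of all these lists that edgeR called. It fell from 62.0 to 72.1 CPM in GR+/+ to 21.1 to 25.1 CPM in GRdim/dim lungs, a log2 fold change of -1.51 (SE 0.17, edgeR adjusted *p*-value 0.00931).

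**Figure D3:**
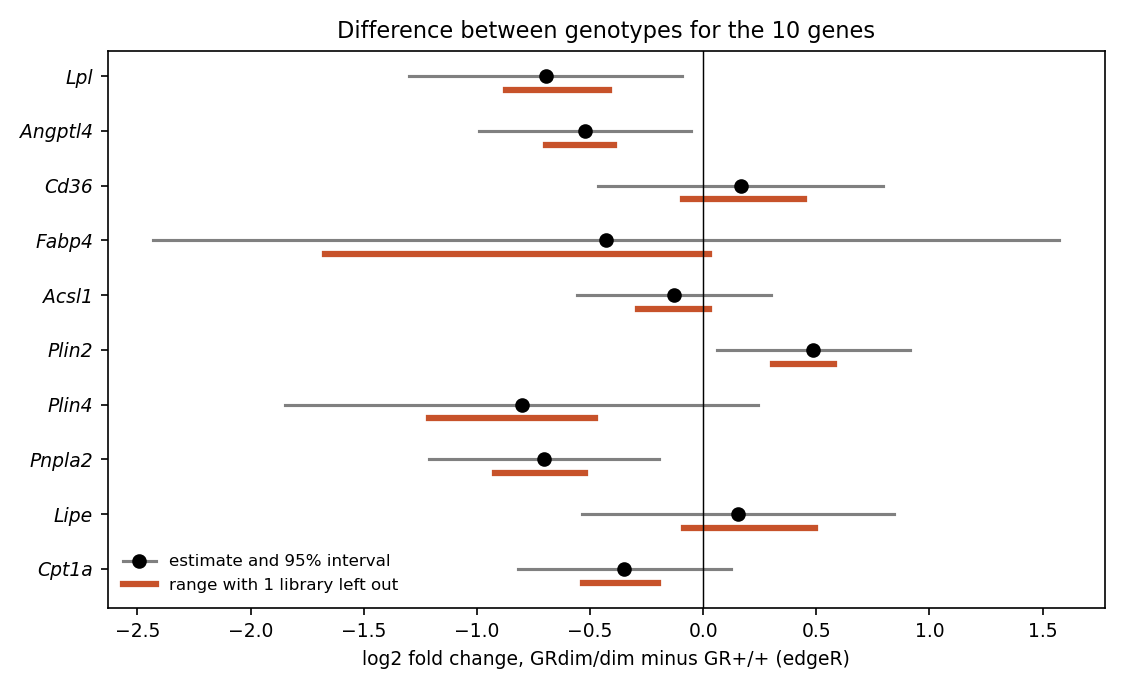
Log2 fold change, GRdim/dim minus GR+/+, of the 10 genes from edgeR (black points) with 95% intervals (grey lines), and the range of the same value when each of the 6 libraries is left out in turn (orange bars). The intervals of *Lpl*, *Angptl4*, *Pnpla2* and *Plin2* lie off 0, before adjustment for the genes tested, and the interval of *Fabp4* is the widest, from -2.43 to 1.57.

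The 10 genes did not vary as one block. GRdim/dim replicate 3 held the lowest level of 4 of them (*Lpl*, *Angptl4*, *Cd36* and *Cpt1a*) and the highest level of 3 others (*Plin2*, *Fabp4* and *Lipe*). GR+/+ replicate 1 held the highest level of 4 (*Angptl4*, *Cpt1a*, *Plin4* and *Pnpla2*). Likeness was measured as the root mean square difference of log2 CPM over the 6 libraries, each gene centred on its own mean. Of the 45 pairs, *Angptl4* and *Cpt1a* were the most alike (0.12), followed by *Cpt1a* with *Acsl1* (0.24) and *Cpt1a* with *Pnpla2* (0.24). The least alike were *Cd36* and *Fabp4* (1.35).

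Per gene length, the levels of the 10 genes in GR+/+ lungs ran from *Cd36* (255 CPM per kb) through *Pnpla2* (83.9), *Plin2* (37.1), *Cpt1a* (34.8), *Angptl4* (34.7), *Lpl* (33.7), *Lipe* (15.0), *Fabp4* (11.5) and *Acsl1* (7.08) to *Plin4* (5.55). Of the 9 neighbouring pairs in this order, 6 overlapped across the 3 libraries. The separate ones were *Cd36* above *Pnpla2*, *Pnpla2* above *Plin2*, and *Lpl* above *Lipe*. In GRdim/dim lungs *Plin2* (52.0 CPM per kb) and *Pnpla2* (51.6) lay at the same height, and the other genes kept their order. The deposited length of *Fabp4*, 4489 bases, is that of the whole gene, while its main transcript has 896 bases. On the length of the main transcript its level in GR+/+ lungs would be 57.6 CPM per kb, and that of *Lpl* 85.7.

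Because *Fabp4*, *Plin4*, *Lpl*, *Pnpla2* and *Lipe* are also abundant in fat cells, markers of adipocytes were read in the same libraries. Of 14 markers, 12 were tested, and 4 of the 14 are also in another list (*Plin1*, *Cidea*, *Cidec* and *Adrb3*). Their summed level was 230, 231 and 56.3 CPM in GR+/+ and 84.8, 62.6 and 299 CPM in GRdim/dim libraries. *Adipoq*, the adiponectin gene, had 8.49, 6.48 and 1.59 CPM in GR+/+ and 2.59, 0.166 and 8.65 CPM in GRdim/dim libraries. *Plin1*, the perilipin of fat cells, had 8.37, 8.87 and 0.858 CPM and 2.48, 0.125 and 8.98 CPM. *Cfd*, the adipsin gene, at 80.6, 43.0 and 9.91 CPM in GR+/+ and 23.2, 5.52 and 125 CPM in GRdim/dim libraries, and *Car3*, a carbonic anhydrase, at 60.1, 63.6 and 7.34 CPM and 26.0, 7.27 and 86.5 CPM, made up much of the sum where it was high. Not all markers followed the sum. *Slc7a10*, an amino acid transporter, was highest in GRdim/dim replicate 2, where *Adipoq* was lowest, with 7.77, 23.9 and 9.82 CPM in GR+/+ and 7.06, 26.8 and 11.2 CPM in GRdim/dim libraries. *Adrb3*, the beta-3 adrenergic receptor gene, had 14.5, 41.8 and 12.3 CPM and 8.46, 15.4 and 11.4 CPM. Of the 12 tested markers, 5 were highest in GRdim/dim replicate 3, 3 each in GR+/+ replicates 1 and 2, and 1 in GRdim/dim replicate 2. *Ucp1*, which defines brown fat cells, had 322 reads in GR+/+ replicate 2 and 0 to 4 reads in the other 5 libraries, and the leptin gene *Lep* had 0 to 13 reads in all. The 3 libraries with the highest summed markers, GR+/+ replicates 1 and 2 and GRdim/dim replicate 3, were also the 3 highest for *Fabp4* and for *Plin4*. *Lpl* was lowest in GRdim/dim replicate 3, the library with the highest summed adipocyte markers. The part of fat cells in the values of *Fabp4*, *Plin4*, *Lpl*, *Pnpla2* and *Lipe* was not tested.

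**Figure D4:**
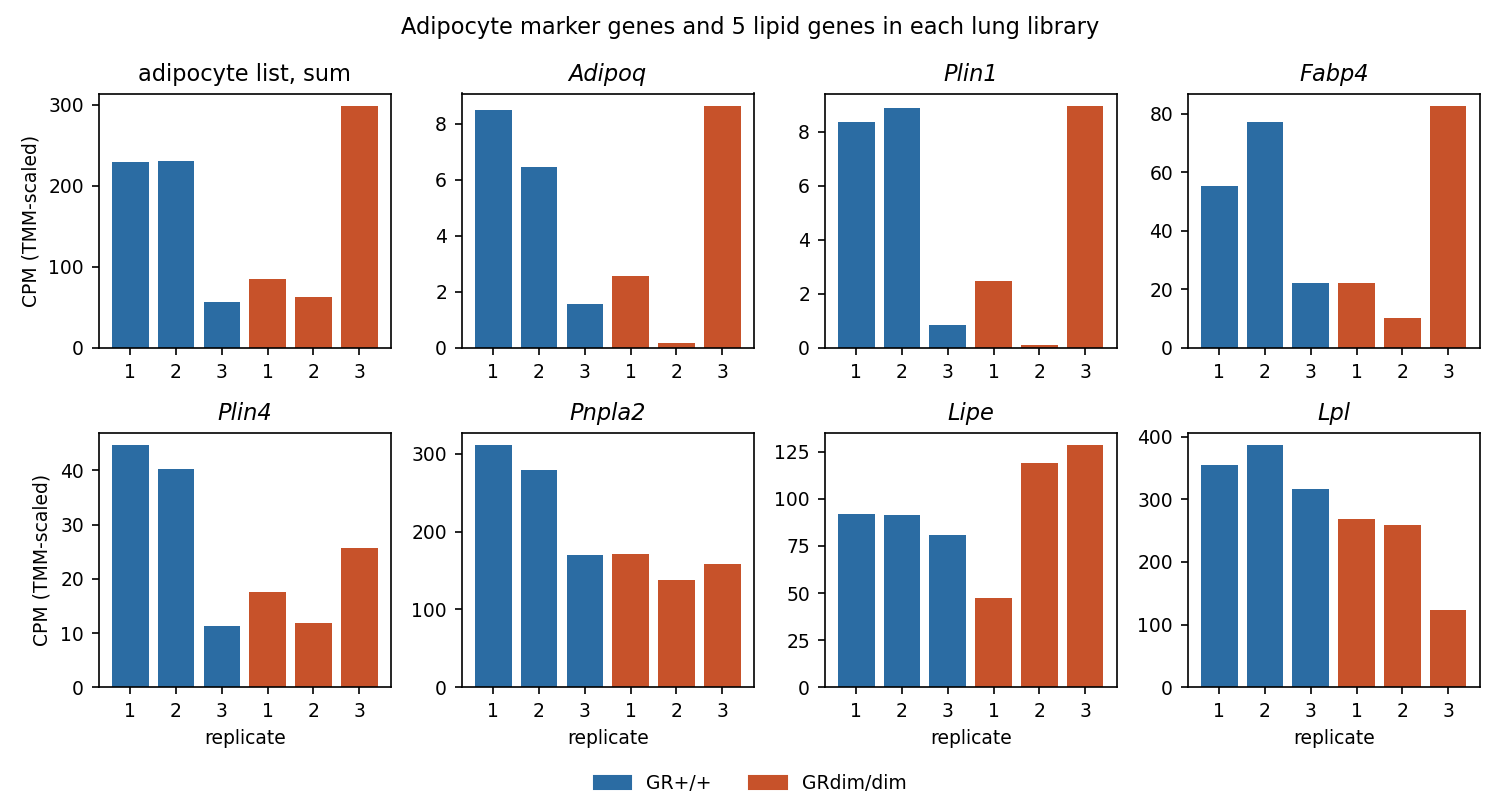
Summed level of 12 adipocyte markers, 2 of these markers (*Adipoq*, *Plin1*) and 5 of the lipid genes in each lung library, in CPM scaled by the TMM method on linear axes from 0; blue bars are GR+/+ and orange bars GRdim/dim, replicates 1 to 3. GR+/+ replicates 1 and 2 and GRdim/dim replicate 3 hold the highest marker sums (230, 231 and 299 CPM) and the highest *Fabp4*. *Lpl* is lowest in GRdim/dim replicate 3, and the part of fat cells in these values was not tested.

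Markers of the other cells that a lung sample can hold were also summed. Alveolar macrophage markers had 732 to 807 CPM in GR+/+ and 672 to 768 CPM in GRdim/dim libraries. Those of alveolar type 2 cells, with 17911 to 26260 CPM and 18747 to 26914 CPM, fibroblasts and lipofibroblasts, with 3770 to 5262 CPM and 3889 to 4316 CPM, and capillary endothelium, with 4164 to 6132 CPM and 5445 to 5695 CPM, overlapped between the genotypes too. So did those of interstitial macrophages and monocytes (235 to 348 CPM and 303 to 413 CPM), neutrophils (281 to 546 CPM and 380 to 1172 CPM), erythroid cells (1110 to 4150 CPM and 1728 to 4365 CPM), cardiomyocytes (180 to 1046 CPM and 458 to 935 CPM) and skeletal muscle (5.97 to 15.2 CPM and 9.06 to 21.1 CPM). Overlapping sums hid single markers that differed. Of the 14 tested markers of capillary endothelium, 5 with higher and 2 with lower levels in GRdim/dim lungs had an unadjusted *p*-value under 0.05. Among all genes these shares were 4.91% and 4.68%. None of the 14 was called by edgeR, and their median log2 fold change was 0.08. Of the 9 tested neutrophil markers, 8 had a positive log2 fold change (median 0.85) and 3 reached an unadjusted *p*-value under 0.05, all with higher levels in GRdim/dim lungs, as 4.91% of all genes did. DESeq2 called 2 of them, *Ngp* and *Retnlg*, and 1.7% of all its genes, and edgeR called none of them. All 9 tested markers of interstitial macrophages and monocytes had a positive value (median 0.11), while 49.1% of all genes had a negative one. *Ly6c2* and *Plac8*, 2 of these markers, had an unadjusted *p*-value under 0.05 with higher levels in GRdim/dim lungs, as did 4.91% of all genes. The part of these cells in the values of the 10 genes was not tested. The lung markers were present in every library.

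The lists of lipid pathways held 172 genes besides the 10, of which 147 were tested. edgeR called 1 of them, *Pdk4*, and 0.169% of all genes. DESeq2 called 5, *Pdk4*, *Hilpda*, *Scd2*, *Klf15* and *Scarb1*, and 1.7% of all its genes. An unadjusted *p*-value under 0.05 was reached by 8 with higher and 9 with lower levels in GRdim/dim lungs, 11.6% together, and by 9.6% of all genes. The groups did not overlap for 15.6% of them and for 14.8% of all genes, so both shares were near the background. Their median log2 fold change was -0.10.

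*Klf15*, a transcription factor that glucocorticoids are known to induce, was at 104, 102 and 94.1 CPM in GR+/+ and at 50.4, 70.1 and 55.7 CPM in GRdim/dim lungs (log2 fold change -0.76, SE 0.17, adjusted *p*-value 0.16 in edgeR and 0.0251 in DESeq2). Groups without overlap were a condition for naming *Klf15* and are not a result about it. Of the PPAR genes themselves, *Pparg* had 10.6 to 16.1 CPM in GR+/+ and 13.1 to 13.8 CPM in GRdim/dim lungs, *Ppard* 33.1 to 50.1 and 48.9 to 50.1 CPM, and *Ppara* 2.46 to 3.71 and 1.23 to 2.66 CPM. The 20 tested genes of the list of known PPAR targets, 8 of the 10 genes included, had a median log2 fold change of -0.23. Of the 20 values 4 were positive and 16 negative, and 49.1% of all genes were negative. The list was chosen with earlier results of these data known, so these counts are a description and no test. For the 12 targets that are not among the 10 genes the median was -0.20. The median of all 20 was -0.11 without GRdim/dim replicate 1 and -0.40 without GRdim/dim replicate 2.

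In triglyceride synthesis, the acyltransferase genes *Gpam* and *Dgat1* differed in sign. *Gpam*, which adds the first acyl chain to glycerol-3-phosphate, had 95.8, 68.3 and 81.8 CPM in GR+/+ and 62.1, 53.8 and 24.3 CPM in GRdim/dim lungs (log2 fold change -0.81, SE 0.30, edgeR adjusted *p*-value 0.44). *Dgat1*, which adds the last one, had 38.5, 37.7 and 26.7 CPM and 41.1, 49.7 and 67.4 CPM (log2 fold change 0.62, SE 0.23, edgeR adjusted *p*-value 0.43). Neither pair of groups overlapped, which was a condition for naming these genes. GRdim/dim replicate 3 was the most extreme library for both. The median over the 13 tested genes of this list was -0.17, and it turned to between 0.05 and 0.06 without GR+/+ replicate 1, GR+/+ replicate 2 or GRdim/dim replicate 1.

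**Figure D5:**
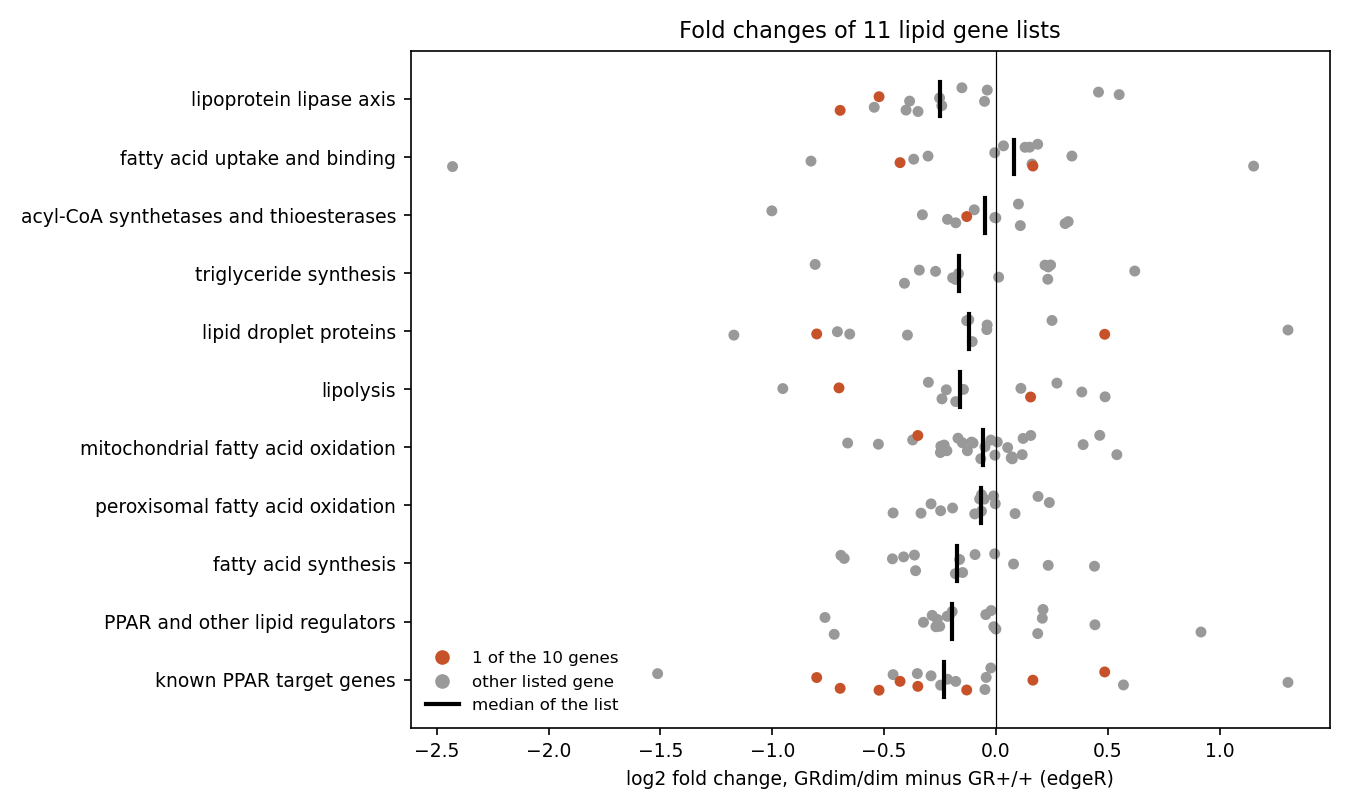
Log2 fold change, GRdim/dim minus GR+/+ (edgeR), of each tested gene in 11 lipid gene lists, with the 10 genes in orange, other listed genes in grey, and the median of each list as a black line; vertical position within a list carries no meaning. List medians lie between -0.25 and 0.08, and *Pdk4* at -1.51 is the only gene called.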

How the data were processed

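Poly(A)-captured RNA from one lung per mouse was sequenced by a commercial provider. The authors deposited whole-number read counts per gene, neither normalized nor pooled. Their processing notes name mm10 and DESeq2. The aligner, counting tool, annotation release and use of strand are not given in the sources used here. Of the 54532 genes, 54409 were found in GENCODE M21 and 53499 had identical coordinates.

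Groups and replicate numbers came from the sample labels. The counts were tested in R 4.3.3 with edgeR 4.0.16 (TMM, filterByExpr, robust glmQLFit, glmQLFTest, Benjamini-Hochberg adjustment over 16568 genes). DESeq2 1.42.0 was an alternative. Log2 CPM values used a prior count of 2. Log2 fold changes, SE and intervals came from the edgeR fit, which did not use that count. CPM are reads per 1000000, TMM-scaled. Single values were compared by two-sided exact permutation tests (10 arrangements). Libraries of the same genotype differed beyond sampling noise (chi-square 13.9 to 44.1 per degree of freedom) and were used separately. Each library is a separate mouse.

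The members and lists were chosen with earlier results of these data known. From each pathway list, up to 4 genes per direction were named, those with the smallest *p*-values among genes with an unadjusted *p*-value under 0.05 and no overlap. *Pdk4* was added as a gene shared with another pathway, with the defining markers and the families of the shares. The 3 genes most like *Angptl4*, *Plin2* and *Fabp4* were named too. *Scarb1*, *Slc27a2*, *Acacb*, *Abhd5*, *G0s2*, *Mgll*, the 3 PPAR genes and the markers *Cfd*, *Car3*, *Slc7a10*, *Adrb3*, *Ngp*, *Retnlg*, *Ly6c2* and *Plac8* were named outside this rule, after their values were seen. Alternatives were RLE scaling, other filters on low counts (none, or at least 10 in every library), DESeq2, a replicate block, a covariate for sex-linked expression, no fold threshold, shares without length, and each library left out. Shares by main transcript length were added after seeing the data. In 5 simulated data sets the test, on a mean of 16317 genes, recovered 40.0% of the 2-fold and 87.4% of the 4-fold changes, with 7.36% of calls false.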

Additional observations from a re-analysis of the deposited data

How the results depend on the processing

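The 28 genes called became 274 with DESeq2 and 522 with no filter on low counts, and 4 (without GR+/+ replicate 2) to 22 with each library left out. Of the 10 lipid genes, none was called except with no filter, where 2 were, *Lpl* and *Pnpla2* (log2 fold change -0.70 each). At an unadjusted *p*-value under 0.05, the 4 of the 10 genes became 2 with the covariate for sex-linked expression, of which only *Pnpla2* was among the 4, and 1 to 6 with each library left out. Over the same omissions the log2 fold change of *Acsl1* ran from -0.29 to 0.026, of *Cd36* from -0.0873 to 0.44, of *Fabp4* from -1.67 to 0.0267, and of *Lipe* from -0.084 to 0.49. The signs of the other 6 genes did not turn under any alternative. With main transcript lengths the difference in share was -0.0543 percentage points for *Acsl6* and -3.91 for *Cpt1a*. The median of fatty acid synthesis was -0.30 with the sex covariate and -0.29 to -0.20 with a library left out. That of the lipid regulators was -0.13 with no filter and -0.17 to -0.0884 with a library left out, that of droplet proteins -0.24 to -0.0613, and that of triglyceride synthesis -0.15 to 0.0591. The median of fatty acid uptake turned from 0.08 to -0.16 with no filter or DESeq2, and ran from -0.18 to 0.0944 with a library left out. Over the same omissions the medians ran from -0.18 to 0.0688 for acyl-CoA synthetases, -0.11 to 0.0818 for mitochondrial and -0.17 to -0.0182 for peroxisomal oxidation, -0.19 to -0.0664 for lipolysis, -0.33 to -0.11 for the lipase axis and -0.40 to -0.11 for PPAR targets. The causes were not tested.

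The replicate numbers were not used as pairs in the main fit. Deviations of same-numbered libraries correlated at 0.218, 0.0361 and -0.0548, and 2 of 3 pairs were closest to their own number. So few pairs cannot decide whether the numbers pair the libraries. With a replicate block 34 genes were called, 0 of them among the 10, and 4 of the 10 had an unadjusted *p*-value under 0.05. With 3 mice per genotype the spread between mice, and at these read numbers not the counting error, limits what could be detected.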

Other observations

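Fatty acid synthesis, which feeds surfactant lipids in alveolar type 2 cells, held 4 tested genes of 14 with an unadjusted *p*-value under 0.05. Of all genes, 9.6% reached it. In the list 1 had higher and 3 had lower levels in GRdim/dim lungs, against 4.91% and 4.68% of all genes, and none was called by edgeR. *Scd2*, a stearoyl-CoA desaturase, had 1334, 1329 and 1676 CPM in GR+/+ and 833, 956 and 895 CPM in GRdim/dim lungs, with no overlap (log2 fold change -0.69, SE 0.20, adjusted *p*-value 0.29 in edgeR and 0.0287 in DESeq2). *Elovl5*, an elongase of polyunsaturated fatty acids, had 284, 292 and 278 CPM and 212, 210 and 218 CPM, the narrowest spread relative to the mean within the genotypes among these 4 genes (log2 fold change -0.41, edgeR adjusted *p*-value 0.44). *Acaca*, which makes malonyl-CoA for synthesis, had 63.3, 56.5 and 69.5 CPM and 50.8, 48.6 and 47.7 CPM (log2 fold change -0.36, adjusted *p*-value 0.50). *Me1*, a source of NADPH, lay the other way, with 105, 112 and 141 CPM and 162, 154 and 171 CPM (log2 fold change 0.44, adjusted *p*-value 0.44). Groups without overlap, found for 14.8% of all genes, were a condition for naming these 4 genes and are not a result about them. The median of the list was -0.17.

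In peroxisomal oxidation, 1 of 15 tested genes had an unadjusted *p*-value under 0.05. *Pex11a*, which promotes division of peroxisomes, had 25.2, 26.9 and 29.8 CPM in GR+/+ and 16.6, 20.1 and 22.9 CPM in GRdim/dim lungs (log2 fold change -0.46, SE 0.20, edgeR adjusted *p*-value 0.50). The median over the list was -0.06, and it ran from -0.17 without GR+/+ replicate 3 to -0.0182 without GR+/+ replicate 1.

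Shares of the fatty acid binding proteins and of the synthetases depended on the length used. Per deposited gene length, *Fabp5* made up 49.0% ± 16.9 of the Fabp RNA in GR+/+ and 47.9% ± 5.17 in GRdim/dim lungs, *Fabp3* 26.1% ± 11.1 and 34.0% ± 3.38, and *Fabp4* 19.3% ± 10.2 and 14.2% ± 7.55 (SD, n = 3 each). On main transcript lengths, *Fabp4*, at 31.7% and 24.7%, lay above *Fabp3*, at 8.65% and 12.2%, and in GR+/+ replicate 2 also above *Fabp5* (46.4% against 39.2%), and *Fabp5* held 57.8% and 61.7%. Of the Acsl RNA per deposited length, *Acsl5* held 43.2% ± 0.91 and 46.3% ± 2.78, *Acsl4* 32.7% ± 2.32 and 30.5% ± 4.05, and *Acsl1* 8.13% ± 2.87 and 7.14% ± 1.12. On main transcript lengths *Acsl1* held 17.7% and 15.8%. The groups overlapped for each of these 6 shares on both lengths.

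Over the 6 libraries, the genes most like *Angptl4* were *Mylk*, *Abhd15* and *Axin2*, with root mean square differences of centred log2 CPM of 0.06, 0.08 and 0.08. Most like *Plin2* were *Tbcb*, *Tubb2a* and *Fdx1*, at 0.06, 0.08 and 0.09. Nothing was closer to *Fabp4* than *Mkrn3*, *Mb* and *Tmem45b*, at 0.33, 0.34 and 0.40. *Mb*, the myoglobin gene, had 13.6, 18.5 and 2.83 CPM in GR+/+ and 5.07, 2.66 and 15.9 CPM in GRdim/dim libraries, and it is in the list of cardiomyocyte markers.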
